A study of Mus musculus with 6 samples.

Results

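Complement is a set of plasma and cell-surface proteins that tag particles for removal, and 9 mouse genes of it were followed here in microglia, macrophages that reside in the brain, in culture. They are the C1q subunits C1qa, C1qb and C1qc, the component C4b, the central component C3, the alternative pathway genes Cfb and Cfp, the receptor C3ar1 and the membrane regulator Cd55. They were chosen by symbol from the table of counts, in which each of the 9 was found among 48005 gene entries, and Cfb was found only in an entry that joins it to other genes. The 3 EV-treated samples were microglia given extracellular vesicles (EVs), small membrane particles that cells release, which were spun down by serial centrifugation from primary neural stem cells of the subventricular zone of CD1 mice grown in culture. The 3 control samples were cultured microglia given a control treatment. The strain of all 6 samples is CD1. The sources used here do not give the age and sex of the animals, the dose of vesicles, the time of exposure or the nature of the control treatment. The labels do not say that samples A, B and C of a group came from separate cultures, so a p-value here measures only how these samples scatter, and that scatter may be technical.

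C1q, the recognition molecule of the classical pathway, is built from chains of 3 kinds, and microglia are its main source in the brain, where it is known for its part in tagging synapses. All pathways meet at the cleavage of C3, whose larger fragment binds covalently to surfaces and whose smaller fragment is a ligand of the receptor encoded by C3ar1. In the alternative pathway, factor B, encoded by Cfb, joins with C3b to form the convertase, properdin, encoded by Cfp, stabilises that convertase, and Cd55, a lipid-anchored surface protein, speeds its decay.

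The genes of the alternative pathway and those of C1q changed in opposite directions. C3, the entry holding Cfb, Cfp and Cd55 were higher in EV-treated than in control microglia, and C1qa, C1qb, C1qc and C3ar1 were lower. C4b, counted near the limit of detection, gave no call. In edgeR's quasi-likelihood test with Benjamini-Hochberg adjustment over the 16605 entries tested, 4 of the 9 genes thus rose and 4 fell, at an adjusted p under 0.05. Over all entries tested, 33.0% were called higher and 33.5% lower in EV-treated samples, so a call in either direction was common. The 2 groups did not overlap in CPM, the counts scaled to one common library total with TMM factors, for 7 of the 9 genes, against 71.3% of all entries tested. The median log2 fold change was -0.60 over the 9 genes and -0.02 over all entries.

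**Figure D1:**
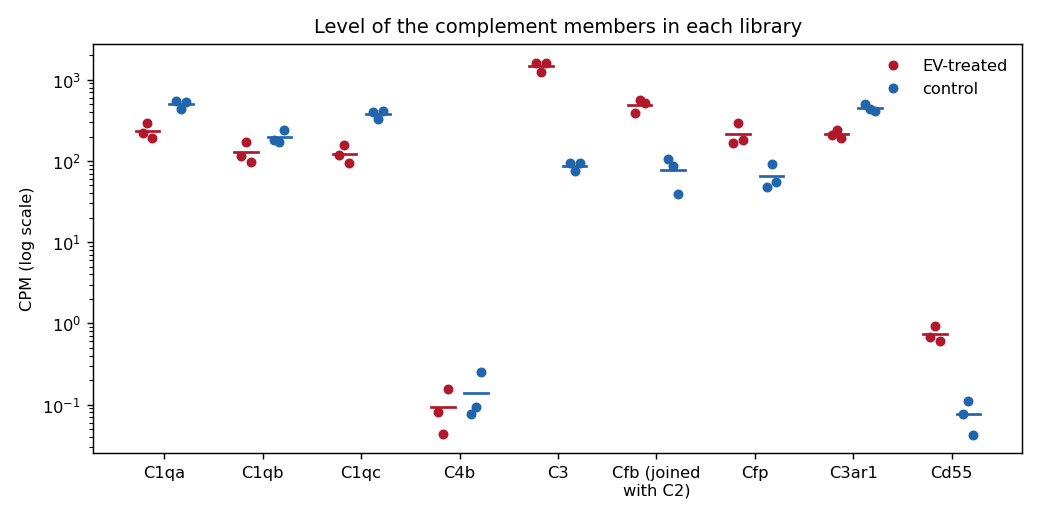
CPM of the 9 complement genes on a log scale in the 3 EV-treated libraries (red, left) and the 3 control libraries (blue, right), with each point a library and each bar the group mean. C3 averaged 1488 CPM in EV-treated and 87.6 CPM in control libraries, and the groups overlapped for C1qb and C4b alone.

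The libraries held 133112063 to 142805303 counts in EV-treated and 109744701 to 162544804 counts in control samples. Of 10 microglial markers, all were detected, and their summed level was 2676 to 2951 CPM in EV-treated and 4102 to 5470 CPM in control libraries. Csf1r, the receptor of the growth factor that microglia depend on, stood at 692.4 to 883.5 CPM in EV-treated and 736.0 to 800.9 CPM in control libraries. P2ry12, which marks unstimulated microglia, stood at 0.0565 to 0.123 CPM in EV-treated and 2.90 to 5.06 CPM in control libraries. This defining marker was thus nearly absent from the EV-treated samples and low in the controls. Cx3cr1 stood at 1.76 to 2.98 CPM in EV-treated and 226.1 to 394.1 CPM in control libraries. Sall1 went the other way, at 10.6 to 11.9 CPM in EV-treated and 5.3 to 7.3 CPM in control libraries. Of the 10 markers, 6 were called lower and 1 higher in EV-treated samples. The summed level of 7 astrocyte markers was 94.9 to 131.0 CPM in EV-treated and 14.9 to 20.3 CPM in control libraries, almost all of it from Slc1a2 and Gja1 in the EV-treated samples. Of the other astrocyte markers, Aldh1l1 was at 1.04 to 2.29 CPM in EV-treated and 10.7 to 15.3 CPM in control libraries, and Gfap, Aqp4 and Slc1a3 were under 1 CPM in all 6. The sum of 7 oligodendrocyte-lineage markers was 29.99 to 43.4 CPM in EV-treated and 212.5 to 439.8 CPM in control libraries, mostly from Cspg4, with Mog, Olig1 and Olig2 under 1 CPM in all 6. That of 7 markers of neural stem cells and neurons was 2.44 to 3.58 CPM in EV-treated and 46.4 to 83.0 CPM in control libraries, mostly from Nes, with the other 6 under 1 CPM in all 6. That of 4 endothelial markers was 24.6 to 35.0 CPM in EV-treated and 4.605 to 6.004 CPM in control libraries, mostly from Kdr, with Cldn5 under 1 CPM in all 6. The sum of 5 fibroblast and pericyte markers overlapped between the groups, at 12.8 to 19.0 CPM in EV-treated and 13.6 to 36.4 CPM in control libraries. Of these 5, 2 were called higher and 1 lower in EV-treated samples. Their log2 fold changes were 5.51 for Dcn, 2.89 for Pdgfrb, -1.28 for Col1a1 and -0.45 for Col1a2. All 5 neutrophil and all 5 lymphocyte markers were under 1 CPM in all 6. The ratio of Y-linked to Xist counts moved with the groups too, at log2 values of -4.86, -4.90 and -5.51 in EV-treated and -1.35, -1.65 and -3.86 in control libraries. The part of these differences in the results below was not tested, beyond a fit with the Y-linked to Xist ratio as a covariate. That fit is given below with single genes and in the last section. Since the ratio did not overlap between the groups, the fit can separate it from treatment only in part. In bulk RNA of this kind, fewer cells of a type and less RNA per cell cannot be told apart.

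Of the C1q genes, which encode the A, B and C chains, C1qc changed most. They lie side by side on the minus strand of chromosome 4 within 18675 bases (GRCm38), with C1qb at chr4:136880129-136886187, C1qc at chr4:136889804-136893065 and C1qa at chr4:136895917-136898803. RefSeq promoters (GRCm38.p6) were matched for 6 of the 9 genes and are shown here for C1qc, which changed most of the 3, and its neighbour C1qb, which changed least. Each is the 250 bases up to the RefSeq start, 5′ to 3′ on the minus strand, with the C1qc bases at chr4:136892915-136893164 and the C1qb bases at chr4:136886201-136886450, and capitals mark matches to the motifs that were searched.
C1qc: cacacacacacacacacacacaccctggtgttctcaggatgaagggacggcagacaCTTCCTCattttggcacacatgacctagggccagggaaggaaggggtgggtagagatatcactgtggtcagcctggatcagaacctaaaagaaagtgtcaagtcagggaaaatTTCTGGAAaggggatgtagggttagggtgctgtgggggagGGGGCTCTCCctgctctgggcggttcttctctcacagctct
C1qb: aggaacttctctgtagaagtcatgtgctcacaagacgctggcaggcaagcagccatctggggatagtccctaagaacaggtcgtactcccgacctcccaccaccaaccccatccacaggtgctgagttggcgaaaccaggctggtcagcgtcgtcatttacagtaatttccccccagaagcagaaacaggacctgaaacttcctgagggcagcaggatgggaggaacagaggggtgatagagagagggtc
The motifs were those of NF-kB (known by name, a 10-base pattern), C/EBP (TTNNGNAA), GAS (TTCNNNGAA), ISRE (GAAA, 2 bases of any kind, GAAA), AP-1 (TGANTCA) and PU.1 (GAGGAAG), each searched on both strands, and no 2 matches overlapped in the sequences printed. C1qc held CTTCCTC, a PU.1 match on the opposite strand, the C/EBP match TTCTGGAA and the NF-kB match GGGGCTCTCC. The GENCODE gene of C1qc begins farther upstream than the RefSeq start, so that the last 151 bases of its window, with the C/EBP and NF-kB matches, lie in its first counted exon bin. C1qb held no match to any of these letters in its window, which lies wholly outside its gene. Over 32851 promoters of the same length, 10.6% held the PU.1 letters, 36.8% the C/EBP letters and 7.25% the NF-kB letters, and a match is a description of the letters only.

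C1qc stood at 117.1, 157.0 and 93.4 CPM in EV-treated samples A, B and C, against 403.3, 328.2 and 417.2 CPM in control samples A, B and C. Every EV-treated sample was below every control sample, and the groups were far apart beside the spread within each. C1qc averaged 123 ± 32.1 CPM in EV-treated and 383 ± 47.9 CPM in control samples (SD, n = 3 each) and fell by 1.64 on the log2 scale (SE 0.19, adjusted p = 4.05e-05 in edgeR's quasi-likelihood test), which is 3.13-fold lower. C1qa stood at 223.4, 292.8 and 193.2 CPM in EV-treated samples, against 545.4, 442.1 and 538.3 CPM in control samples. The groups did not overlap here either. C1qa averaged 237 ± 51.1 CPM in EV-treated and 509 ± 57.7 CPM in control samples (SD, n = 3 each) and fell by 1.10 (log2, SE 0.17, adjusted p = 2.47e-04 in edgeR's quasi-likelihood test).

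C1qb stood at 114.6, 173.1 and 96.5 CPM in EV-treated samples, against 180.3, 169.6 and 239.4 CPM in control samples. The groups overlapped, since EV-treated sample B was above control sample B. C1qb averaged 128 ± 40.04 CPM in EV-treated and 196 ± 37.6 CPM in control samples (SD, n = 3 each) and fell by 0.62 (log2, SE 0.22, adjusted p = 0.0288 in edgeR's quasi-likelihood test). That call was lost with the Y-linked to Xist covariate (log2 fold change -0.94, adjusted p = 0.0738), with the strongest exon bin in place of the sum (-0.50, adjusted p = 0.0622), and without EV-treated sample A (-0.57, adjusted p = 0.0887), EV-treated sample C (-0.46, adjusted p = 0.0749) or control sample C (-0.47, adjusted p = 0.0895), all in edgeR's quasi-likelihood test. The fold change of C1qb was below 0 in all 16 other fits made.

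Summed over the 3 genes, C1q RNA came to 455.1, 623.0 and 383.2 CPM in EV-treated samples and 1129, 939.9 and 1195 CPM in control samples. The lowest control sample was above the highest EV-treated sample. The sum averaged 487 ± 123.1 CPM in EV-treated and 1088 ± 132.3 CPM in control samples (SD, n = 3 each).

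The proportions among the C1q genes differed too. The ratio of C1qc to C1qb within a library, each in counts per length, was 0.576, 0.511 and 0.545 in EV-treated samples, against 1.26, 1.09 and 0.982 in control samples. Every EV-treated ratio was under every control ratio. The mean log2 ratio was -0.88 ± 0.09 in EV-treated and 0.14 ± 0.18 in control samples (SD, n = 3 each), a difference of -1.02. The log2 ratio of C1qa to C1qb differed by -0.48 and that of C1qc to C1qa by -0.55, with no overlap in either. Each gave p = 0.10 in a two-sided exact permutation test, the smallest p that 3 against 3 samples allow, and these are 3 of 7 such ratios tested, all at the same p, which stays 0.10 after Benjamini-Hochberg adjustment over the 7. A ratio within a library does not depend on the scaling of the libraries. Its level does depend on the bins used: between the longest bins, C1qc over C1qb was 1.12, 0.996 and 1.06 in EV-treated and 2.35, 2.10 and 1.91 in control samples, with a difference in mean log2 ratio of -1.0.

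**Figure D2:**
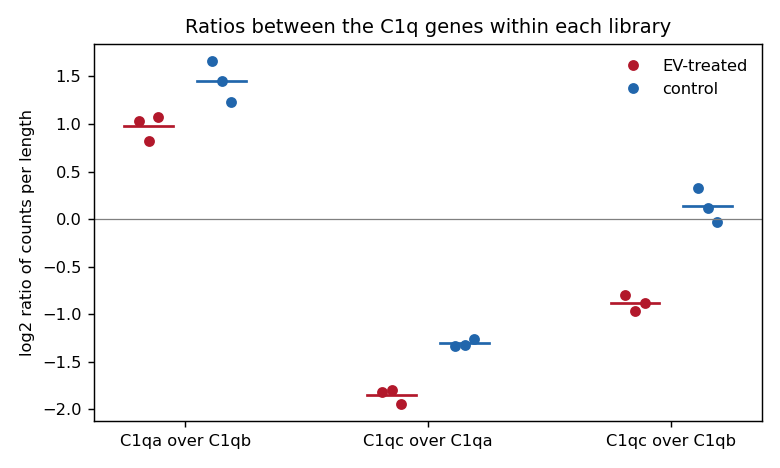
Log2 ratio of counts per length between C1q genes within each library, for 3 EV-treated libraries (red, left) and 3 control libraries (blue, right), with bars at the group means. For C1qc over C1qb the EV-treated mean is -0.88 and the control mean 0.14.

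All 3 exon bins of C1qa, all 3 of C1qb and all 5 of C1qc had a lower mean CPM in EV-treated samples, by -2.11 to -1.58 (log2 ratio) for the bins of C1qc, -1.17 to -0.87 for C1qa and -0.73 to -0.58 for C1qb. The ranges of the 3 genes did not meet. No bin of the 3 was called as used more or less than the rest of its gene (edgeR diffSpliceDGE, adjusted p under 0.05), against 4.19% of the 198361 bins tested.

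C4b encodes C4, which the classical and lectin pathways cleave after C1q or a lectin has bound. It lies at chr17:34728380-34743882, minus strand, 112491 bases from Cfb. It had 10, 5 and 20 counts in EV-treated samples, against 10, 12 and 47 counts in control samples. The groups overlapped, and control sample C alone set the control group above. C4b averaged 0.0936 ± 0.0572 CPM in EV-treated and 0.140 ± 0.0952 CPM in control samples (SD, n = 3 each), with a difference of -0.60 on the log2 scale (SE 0.63, adjusted p = 0.426 in edgeR's quasi-likelihood test). Its log2 fold change was 0.13 without control sample C and -2.48 (adjusted p = 0.047 in the same test) with the Y-linked to Xist covariate, so no direction can be read at this depth. C4a, a near-identical copy, averaged 1.31 ± 0.223 CPM in EV-treated and 1.48 ± 0.171 CPM in control samples (SD, n = 3 each; log2 fold change -0.17, adjusted p = 0.508 in edgeR's quasi-likelihood test), and how reads were divided between the copies is uncertain.

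C3 had the largest rise of the 9 genes as counted in whole entries. It lies at chr17:57203970-57228136, minus strand, and the 250 bases before its RefSeq start, at chr17:57228137-57228386 (GRCm38.p6), are shown because they hold 3 matches to the C/EBP letters in capitals.
C3: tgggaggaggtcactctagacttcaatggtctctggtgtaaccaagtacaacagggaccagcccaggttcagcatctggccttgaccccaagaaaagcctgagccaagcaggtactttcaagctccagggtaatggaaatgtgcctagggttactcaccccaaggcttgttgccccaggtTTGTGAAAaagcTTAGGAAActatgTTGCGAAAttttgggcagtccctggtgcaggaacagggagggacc
The matches are TTGTGAAA at positions -70 to -63, TTAGGAAA at -58 to -51 and TTGCGAAA at -45 to -38, counted back from -1 at the last base before the start, and the last of them matches on both strands. At least 3 matches were found in 2.61% of the 32851 promoters.

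C3 stood at 1628, 1234 and 1603 CPM in EV-treated samples, against 94.2, 74.3 and 94.3 CPM in control samples. All EV-treated samples were far above all control samples, with sample B lowest in either group. C3 averaged 1488 ± 220.4 CPM in EV-treated and 87.6 ± 11.5 CPM in control samples (SD, n = 3 each), a difference of 4.09 on the log2 scale (SE 0.17, adjusted p = 5.17e-08 in edgeR's quasi-likelihood test) or 16.99-fold. Of all tested entries, 95.8% had a lower fold change, and 720 rose by at least 4 on the log2 scale. The rise ran along the whole transcript: each of the 50 bins tested, of 51, was higher in EV-treated samples, by 3.92 to 4.44 (log2 ratio of means), and none was called for uneven use by diffSpliceDGE.

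Cfb could be read only within an entry of 71 bins that joins it to C2, which encodes the classical pathway's counterpart of factor B, and to Gm20547, a gene model that spans exons of both. On the minus strand, Cfb lies at chr17:34856374-34862518 and C2 at chr17:34862604-34898265, 85 bases apart. The joined entry stood at 391.9, 569.6 and 521.2 CPM in EV-treated samples, against 106.4, 87.0 and 39.4 CPM in control samples. The groups did not overlap, and the control samples were the more scattered. The entry averaged 494 ± 91.9 CPM in EV-treated and 77.6 ± 34.5 CPM in control samples (SD, n = 3 each), a difference of 2.67 on the log2 scale (SE 0.32, adjusted p = 5.85e-05 in edgeR's quasi-likelihood test). With the Y-linked to Xist covariate it was 4.2, with a higher adjusted p (9.92e-05 in the same test).

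The entry was then divided by annotated exons into 33 bins of Cfb exons and 38 bins of C2 exons, a division added after the data were seen. Cfb exon bins stood at 348.4, 527.7 and 479.8 CPM in EV-treated samples, against 11.3, 9.91 and 8.13 CPM in control samples. The groups were far apart, and the scatter of the joined entry among controls was gone. Cfb exon bins rose by 5.53 on the log2 scale (SE 0.21, adjusted p = 2.88e-08 in edgeR's quasi-likelihood test), which is 46.3-fold and above that of the joined entry. The 9 bins that belong to Cfb and to no other gene gave 4.78 (SE 0.17). C2 exon bins stood at 43.5, 41.9 and 41.4 CPM in EV-treated samples, against 95.1, 77.1 and 31.3 CPM in control samples. These overlapped, since control sample C was below all EV-treated samples, and C2 exon bins gave no call (log2 fold change -0.68, SE 0.32, adjusted p = 0.0823 in edgeR's quasi-likelihood test).

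The division of counts within the entry thus turned round between the groups. Cfb exon bins held 88.9% to 92.7% of the entry's counts in EV-treated samples, against 10.6% to 20.6% in control samples. Of the entry's 62 bins tested for uneven use, 56 were called by diffSpliceDGE, against 4.19% of all bins tested. Of these, 27 were used more, all in Cfb exons, and 29 used less, all in C2 exons, in EV-treated samples. Since the entry joins genes that changed differently, these calls restate that difference and do not show uneven exon use within a gene. No other of the 9 genes had a called bin. C4b and Cd55 had no bin with enough counts to test.

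**Figure D3:**
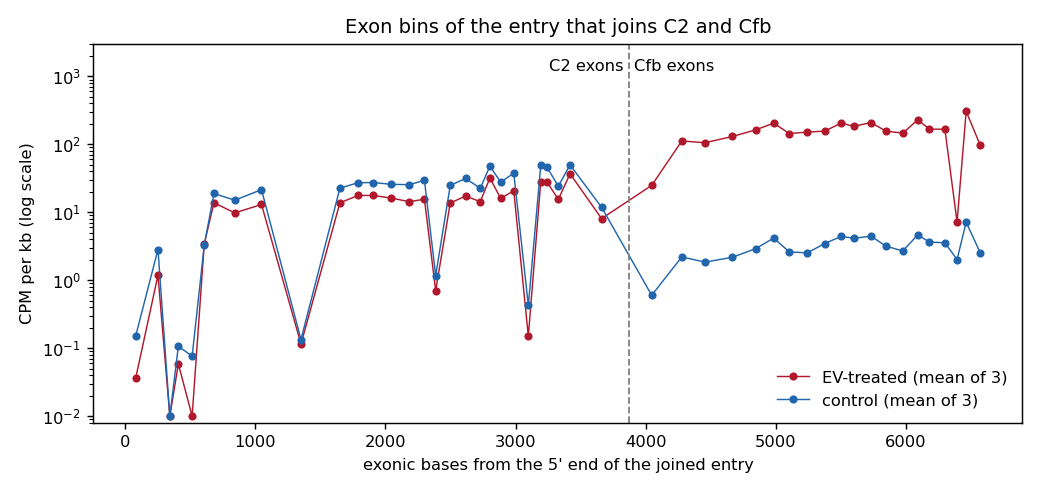
Mean CPM per kb (log scale) of the exon bins of at least 30 bases in the entry that joins C2 and Cfb, by exonic distance in bases from its 5′ end, for EV-treated (red) and control (blue) libraries, with bins at 0 drawn at the foot of the axis. Right of the dashed line, where the Cfb exons lie, the EV-treated line is above the control line at each bin. Left of it, over the C2 exons, the lines run closer, with the control line above at most bins.

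Cfp, which encodes properdin, lies at chrX:20925454-20931555, minus strand. It stood at 168.2, 290.7 and 183.5 CPM in EV-treated samples, against 47.5, 92.1 and 54.4 CPM in control samples. The groups did not overlap, and sample B was the highest of either group. Cfp averaged 214 ± 66.7 CPM in EV-treated and 64.7 ± 24.1 CPM in control samples (SD, n = 3 each), a difference of 1.73 on the log2 scale (SE 0.28, adjusted p = 3.76e-04 in edgeR's quasi-likelihood test) or 3.31-fold. With the Y-linked to Xist covariate, given here because Cfp is X-linked, the log2 fold change was 2.12. Its adjusted p was higher in that fit (0.018 in the same test). All 12 bins of Cfp were higher in EV-treated samples, by 1.45 to 2.05 (log2 ratio of means).

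C3ar1, the receptor of the small C3 fragment C3a, changed against its ligand's gene. It lies at chr6:122847138-122856161, minus strand. C3ar1 stood at 210.0, 240.2 and 189.6 CPM in EV-treated samples, against 496.8, 435.6 and 408.5 CPM in control samples. The groups did not overlap, and each was tight. C3ar1 averaged 213 ± 25.4 CPM in EV-treated and 447 ± 45.2 CPM in control samples (SD, n = 3 each) and fell by 1.07 on the log2 scale (SE 0.13, adjusted p = 6.07e-05 in edgeR's quasi-likelihood test). The ratio of C3 to C3ar1 in counts per length within a library was 6.49, 4.30 and 7.08 in EV-treated samples, against 0.159, 0.143 and 0.193 in control samples, a difference of 5.15 in the mean log2 ratio (two-sided exact permutation p = 0.10, the smallest possible).

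The 250 bases before the RefSeq start of C3ar1, at chr6:122856158-122856407 (GRCm38.p6, minus strand), of which the last 4 lie in its GENCODE gene, held a match to the AP-1 letters, in capitals, at positions -22 to -16, and are shown as those of a receptor whose RNA fell beside the ligand gene's promoter above.
C3ar1: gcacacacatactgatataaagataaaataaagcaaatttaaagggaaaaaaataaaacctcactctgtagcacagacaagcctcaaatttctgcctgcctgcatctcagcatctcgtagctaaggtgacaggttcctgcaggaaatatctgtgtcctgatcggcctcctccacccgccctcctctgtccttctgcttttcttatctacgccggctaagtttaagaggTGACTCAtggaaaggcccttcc
The AP-1 letters were found in 6.75% of the 32851 promoters. The windows of Cfp and Cd55 held none of the 6 motifs.

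Cd55, also called decay-accelerating factor, lies at chr1:130439027-130462744, minus strand, and was counted at a low level. It had 84, 107 and 78 counts in EV-treated samples, against 10, 14 and 8 counts in control samples. Every EV-treated sample was above every control sample. Cd55 averaged 0.743 ± 0.175 CPM in EV-treated and 0.0762 ± 0.0339 CPM in control samples (SD, n = 3 each), a difference of 3.31 on the log2 scale (SE 0.43, adjusted p = 9.26e-05 in edgeR's quasi-likelihood test). With the Y-linked to Xist covariate its log2 fold change was 4.64, with a higher adjusted p (0.00264 in the same test). Only 18.9% of the tested entries had a lower mean level. Cd55b, its paralogue, had no count in any sample.

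**Figure D4:**
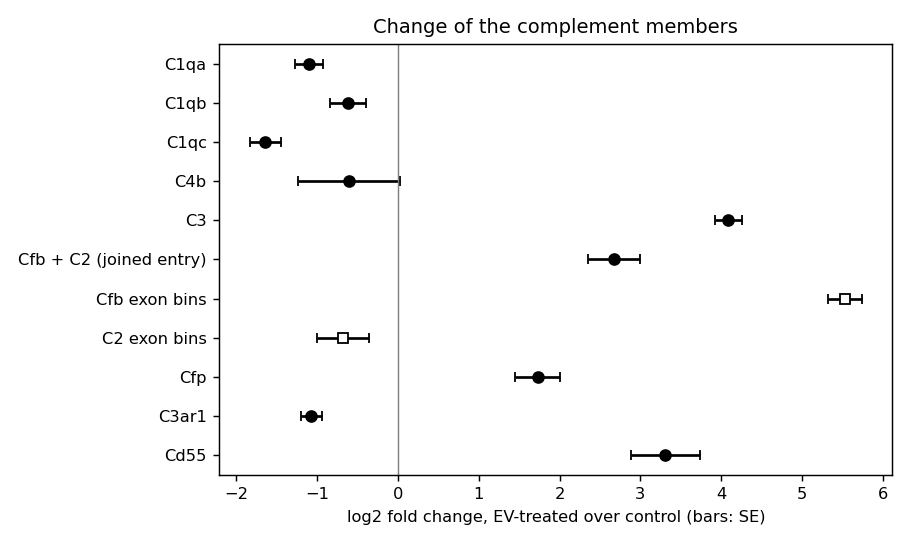
Log2 fold change of EV-treated over control for the 9 complement genes (filled points) and for the exon bins of Cfb and C2 taken apart (open squares), with bars of 1 SE. Cfb exon bins stand at 5.53 and C2 exon bins at -0.68, on either side of the joined entry at 2.67.

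Samples of a group differed among themselves in a way that several of the genes shared. EV-treated sample B was the highest of its group for 7 of the 9 genes and the lowest for C3 and C4b. Control sample C was the highest of its group for 4 genes and the lowest for 3. In levels per length, the order in EV-treated samples began with C3 at 289 CPM per kb and C1qa at 227 CPM per kb. Then came the Cfb exon bins at 160 CPM per kb, Cfp at 123 and C1qb at 118 CPM per kb. Each neighbour in this order overlapped the next across libraries. Within libraries the ratio of Cfp to the Cfb exon bins was 0.786, 0.896 and 0.622 in EV-treated samples A, B and C. In control samples it began with C1qa at 489 CPM per kb, then C1qc at 198 and C1qb at 181 CPM per kb, which overlapped. After these came C3ar1 at 104, Cfp at 37.3, the C2 exon bins at 17.5 and C3 at 17.03 CPM per kb. Reads that span several bins may be counted in each, which raises genes of many short exons, and bins that are little used lower others. In the longest bin of each gene the order was another in EV-treated samples. C1qa led in EV-treated samples at 214 CPM per kb, before C3 at 187, C1qc at 116, C1qb at 111, Cfp at 50.7, C3ar1 at 48.2 and the Cfb exon bins at 24.9 CPM per kb, with overlap between C1qa and C3, C1qc and C1qb, and Cfp and C3ar1. In control samples C1qa at 457 CPM per kb came before C1qc at 347, which did not overlap C1qb at 165 CPM per kb, then C3ar1 at 102.5, Cfp at 17.9 and C3 at 11.4 CPM per kb. The order of levels between genes in EV-treated samples thus depends on the bins taken. In control samples the means of C1qa, C1qc, C1qb, C3ar1, Cfp and C3 kept the same order by both measures.

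The 5 entries whose pattern over the 6 libraries was most like that of C1qa, by root mean square difference of centred log2 CPM among 9197 entries, were Abhd5 (0.082), Ly86 (0.092), Ppt1 (0.098), Farsb (0.107) and Elp4 (0.108). C3ar1 came 23rd, and C1qb and C1qc came 877th and 884th. For C3 the 5 were Dtnb (0.090), Nfkbiz (0.090), Hk2 (0.106), Rcor2 (0.112) and Rapgef2 (0.124). These measures rest mostly on the difference between the 2 groups.

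A wider list of 60 complement genes by role, of which 59 were found, set the 9 beside the rest of the system. Counting the entry of Cfb and C2 once, 35 entries were tested, of which 8 rose and 17 fell, and the median of their log2 fold changes was -0.72. Without the 9 genes, 4 rose and 13 fell of 26 tested, with a median of -0.89, against 33.0% and 33.5% of all entries. Of the classical initiation genes, the C1q genes fell and no other of the 7 tested was called. In the lectin branch, 3 of 4 tested fell. Masp1 and Masp2, which encode its proteases, had log2 fold changes of -2.73 and -1.56, and Fcna, which encodes a ficolin, had -1.36. The groups overlapped for Fcna, with control sample C at 5.87 CPM and EV-treated samples A and B at 6.76 and 6.75 CPM. Colec12, a scavenger receptor with a collectin-like domain, rose by 0.40.

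In the alternative pathway all 3 entries tested rose, C3, Cfb with C2, and Cfp. Cfd, which encodes the protease that cleaves factor B, had too few counts to be tested. Of the terminal components, Hc, which encodes C5, had 17, 16 and 20 counts in EV-treated samples, against 0, 1 and 2 counts in control samples. The ratio of its summed counts, scaled by library size, was 21.6. Its exact 95% interval of 7.001 to 108.1 takes each count as a separate read and leaves out scatter between samples. Since a read may be counted in several bins, that interval may be too narrow. C8g had a log2 fold change of -2.21, and C6, C7, C8a, C8b and C9 were not tested.

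Of the receptors, 6 of 10 tested fell and 1 rose. Itgax and Itgb2, the chains of complement receptor 4, fell by 1.95 and 1.19 on the log2 scale. Itgam, which pairs with Itgb2 in complement receptor 3, averaged 928 ± 71.5 CPM in EV-treated and 910 ± 140.9 CPM in control samples (SD, n = 3 each; log2 fold change 0.03, adjusted p = 0.874 in edgeR's quasi-likelihood test). Calr, a chaperone that also acts as a surface receptor of C1q, rose by 0.51. C5ar1, the receptor of the small C5 fragment, gave no call (log2 fold change 0.52, adjusted p = 0.0539 in edgeR's quasi-likelihood test).

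The regulators did not change in one direction. Of 6 membrane regulators tested, Cd55 and Csmd1 rose and Cd59a and Cd46 fell. Csmd1 had a log2 fold change of 1.52, Cd59a, whose product blocks the terminal complex, -1.97, and Cd46 -0.88. Of the fluid-phase regulators, C1qbp, which encodes a C1q-binding protein found mainly in mitochondria, fell by 0.94. Cfi and C4bp were not tested.

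**Figure D5:**
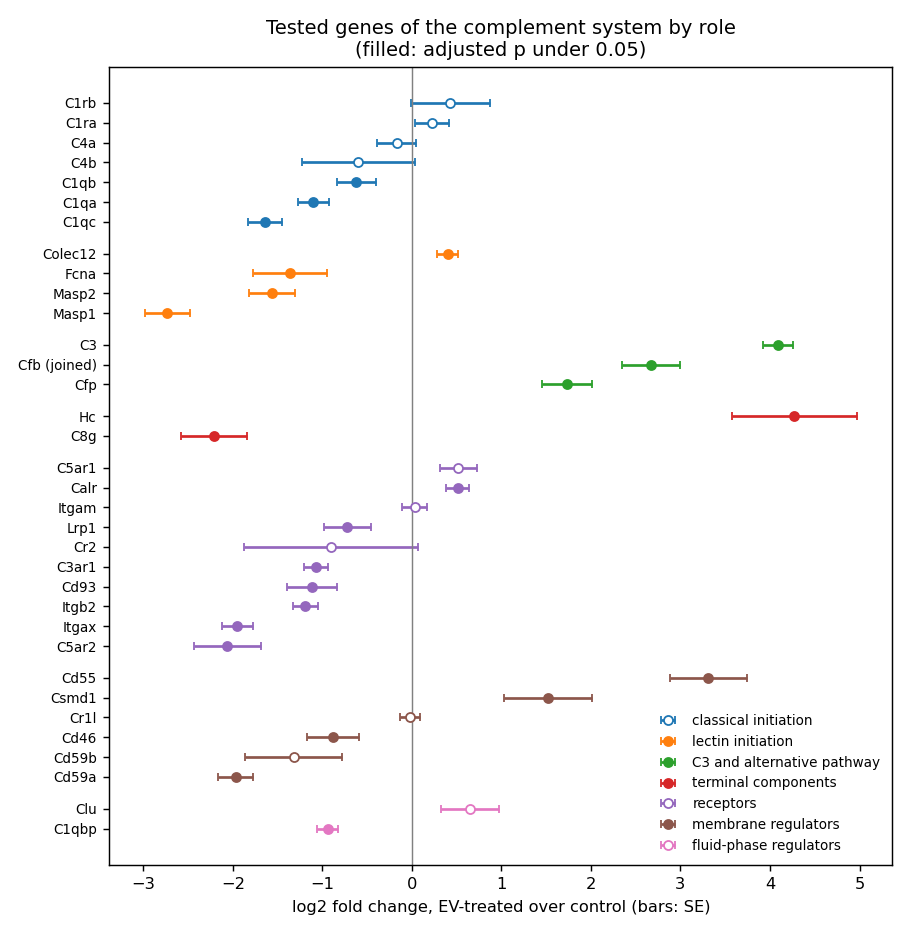
Log2 fold change of EV-treated over control with SE for 34 tested entries of the wider complement list, grouped by role in colour, with filled points for an adjusted p under 0.05 in edgeR's quasi-likelihood test. The 3 alternative pathway entries lie right of 0, and Masp1, at -2.73, lies farthest to the left of those drawn.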

How the data were processed

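RNA of 3 EV-treated and 3 control samples was sequenced from polyA-selected libraries in paired reads of 150 bases, per the labels' protocols. The submitters' processing notes list Trimmomatic 0.36, STAR, Subread, DESeq2 and the build GRCm38. The sources used here give neither the settings nor the strand rule of counting, so reads of overlapping and antisense genes cannot be told apart. The deposited values are raw counts per exon bin, per the file headers, and a read may be counted in several bins. Symbols and exons came from GENCODE vM21, promoters from RefSeq.

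Bin counts were added up within each of 48005 entries, of which 1194 join several genes. Filtering with filterByExpr left 16605 entries. Groups were compared with edgeR 4.0.16 (R 4.3.3; TMM, glmQLFit, glmQLFTest, two-sided, Benjamini-Hochberg over all entries, threshold 0.05). TMM factors were 0.855 to 0.921 in EV-treated and 1.09 to 1.16 in control libraries. SEs are the log2 fold change over the square root of F. Bin usage was tested with diffSpliceDGE. DESeq2 1.42.0 and limma-voom 3.58.1 were alternatives, with other scalings, filters, the strongest bin, a Y-linked to Xist covariate, a replicate block and each library left out. Replicates of a group differed by more than sampling noise. The scripts were tested on simulated data.

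The 9 genes and all lists were chosen with earlier results of these data known. Of the wider list, up to 3 rising and 3 falling genes per role with the smallest p among those called are named. C4a, C5ar1, Itgam and the untested genes were named after their values were seen. 1 of the wider list's tested genes is counted but not reported here.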

Additional observations from a re-analysis of the deposited data

How the results depend on the processing

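All 9 genes kept their direction under every alternative run apart from C4b, whose log2 fold change was 0.13 without control sample C, with a range of -1.18 to 0.13 over the leave-one-out fits. Lost or gained calls are those of C1qb and C4b given above, and the causes were not tested. Log2 fold changes ranged from 3.73 to 4.21 for C3, from 1.35 to 2.12 for Cfp and from 2.93 to 4.64 for Cd55. They ranged from -1.44 to -0.77 for C3ar1, from -1.48 to -0.99 for C1qa and from -2.02 to -1.50 for C1qc. The joined entry that holds Cfb ranged from 2.32 to 4.2, and its strongest bin gave 5.92. Library totals alone shifted the median over all entries to -0.38, upper-quartile scaling to -0.14, and RLE to 0.01, against -0.02 with TMM; with totals alone 5 entries of the wider list rose, against 8. With the Y-linked to Xist covariate, 3599 of all entries rose and 3672 fell, against 5482 and 5555. Of the wider list, 6 entries rose and 12 fell in that fit, against 8 and 17. There C3ar1 had a log2 fold change of -0.77 (adjusted p = 0.0196 in edgeR's quasi-likelihood test). C1qa had -1.1 (adjusted p = 0.0176 in the same test). With the replicate block, 4 of the 9 genes rose and 4 fell, and 5758 and 5851 of all entries. Deviations from the group means correlated at 0.035, 0.167 and 0.210 within letters A, B and C, against -0.199 to 0.034 between letters. For letter A this was a near tie, since EV-treated sample A reached 0.034 with control sample B. The labels do not say that letters pair samples, and the file headers number the samples of each group differently. The strongest bin of C4b and Cd55 and the stricter filter for C4b left nothing to test. The low counts of C4b, Cd55, Hc, C8g, Csmd1 and Cd46 limit their precision.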
